A study of Mus musculus with 2 samples.

Results

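Txnip, Arrdc1, Arrdc2, Arrdc3 and Arrdc4, which are alpha-arrestins, and Mlx, Mlxip (MondoA) and Mlxipl (ChREBP), the glucose-responsive transcription factors that control some of them, were followed in PS10 cells, a female line of extraembryonic endoderm stem (XEN) cells of ICR strain. XEN cells are cultured from the primitive endoderm of the mouse blastocyst and stand for the layer that forms the yolk sac endoderm. One culture received a locked nucleic acid (LNA) against Gata6-AS, the noncoding RNA antisense to the endoderm factor gene Gata6, and the other a control LNA, both with a lipid transfection reagent. The labels call the samples siRNA-Gata6AS and siRNA-Control, and each group is 1 library of total RNA. The genes were found by their symbols, 8 of 26127 rows in the expression table. They were chosen by family after the low value of Arrdc4 in the Gata6-AS library had been seen, so that value describes the choice and supports nothing.

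Alpha-arrestins are adaptor proteins that bring ubiquitin ligases of the NEDD4 family to membrane proteins and so steer their removal from the cell surface. Txnip also binds reduced thioredoxin, and both Txnip and Arrdc4 are known to limit glucose uptake. When glucose enters a cell and is phosphorylated, MondoA or ChREBP, each paired with Mlx, moves to the nucleus and binds carbohydrate response elements in promoters. These elements consist of a pair of E-box-like half-sites a few bases apart. Txnip and Arrdc4 are well-known direct targets of MondoA, and by this loop a cell that senses glucose restrains its further uptake.

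Promoter sequences are shown for Txnip and Arrdc4, the abundant alpha-arrestins whose values parted in the data, and for Mlx, the shared partner of the factors. Each run holds the 250 bases before the annotated start, 5′ to 3′ on the strand of the gene, from RefSeq windows of build GRCm38.p6, which is not the mm9 build of the expression table. The Txnip stretch is chr3:96557707-96557956 on the plus strand, the Arrdc4 stretch chr7:68749239-68749488 on the minus strand and the Mlx stretch chr11:101087040-101087289 on the plus strand. Capitals mark matches, on either strand, to the E-box CACGTG, the paired half-sites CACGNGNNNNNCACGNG, the CCAAT box and the TATA-like TATANAA.
Txnip: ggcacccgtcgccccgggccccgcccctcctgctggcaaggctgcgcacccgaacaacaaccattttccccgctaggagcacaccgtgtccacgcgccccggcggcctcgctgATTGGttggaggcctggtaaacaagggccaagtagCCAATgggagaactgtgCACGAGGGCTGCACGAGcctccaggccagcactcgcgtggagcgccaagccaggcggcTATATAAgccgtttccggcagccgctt
Arrdc4: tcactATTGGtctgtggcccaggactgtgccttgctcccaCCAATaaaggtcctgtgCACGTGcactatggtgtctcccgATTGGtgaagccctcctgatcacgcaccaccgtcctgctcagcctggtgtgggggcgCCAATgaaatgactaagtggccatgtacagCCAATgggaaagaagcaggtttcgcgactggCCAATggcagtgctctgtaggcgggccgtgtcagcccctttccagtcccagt
Mlx: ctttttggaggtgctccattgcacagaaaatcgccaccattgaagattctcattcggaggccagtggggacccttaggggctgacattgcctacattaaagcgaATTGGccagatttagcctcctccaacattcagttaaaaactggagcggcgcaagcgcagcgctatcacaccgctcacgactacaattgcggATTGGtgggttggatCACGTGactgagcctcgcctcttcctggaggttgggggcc
In Txnip, the paired half-sites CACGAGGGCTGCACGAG lay from -85 to -69 relative to the start, between a CCAAT box at -102 and a TATA-like match at -27. In Arrdc4, 1 E-box lay at -193, and CCAAT boxes were found at 6 places, 3 of them between -113 and -48. In Mlx, 1 E-box lay at -40.

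All 8 genes had at least 1 promoter window, 11 windows in all. Of 32851 windows of the same length over 27025 genes, 7.15% held the E-box, 0.0487% (16 windows) the paired half-sites, 37.4% a CCAAT box and 11.3% the TATA-like letters. The E-box was thus found in the windows of Arrdc4, Mlx and 1 of the pair of starts of Mlxipl, and the paired half-sites in that of Txnip. Windows with 6 or more CCAAT boxes, as in Arrdc4, numbered 26 (0.0791%). The windows of Arrdc1 held none of the motifs, and those of Arrdc2 and Arrdc3 held no E-box and no paired half-sites. The E-box letters fit each half-site, so a pair of E-boxes at this spacing would count for both patterns. These matches describe letters, chosen with the sequences in view, and are not evidence of binding.

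**Figure D1:**
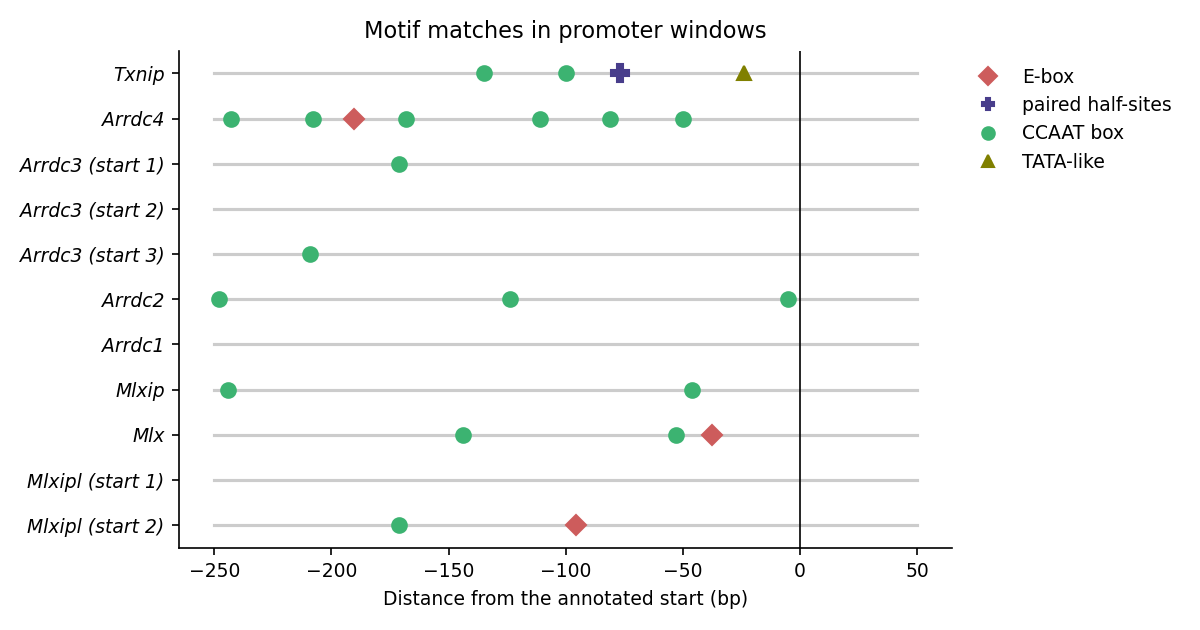
Matches to the motifs in the promoter windows of the 8 genes, by distance from the annotated start in bp (250 before to 50 after); each grey line is a window and each symbol a match on either strand. The paired half-sites appear in Txnip, from -85 to -69, and the 6 CCAAT boxes in Arrdc4.

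The libraries were deep and carried the marks of XEN cells. The step size of the deposited values (RPKM, which are reads scaled to 1 kb of transcript and 1000000 reads in the library) gave a depth of 1.04e+08 reads for the control and 1.23e+08 reads for the Gata6-AS library. The 8 XEN cell markers were Gata4, Gata6, Sox17, Sox7, Foxa2, Dab2, Lama1 and Pdgfra. They summed to 1919 RPKM with the control LNA and 1377 RPKM with the Gata6-AS LNA. In the latter 6 of the 8 were lower, of which Sox7 passed a 2-fold rule (145 against 59.4 RPKM). Of the 10868 genes averaging 1 RPKM or more, 58.0% were higher in the Gata6-AS library and 0.451% passed this rule as lower. Markers of embryonic stem cells summed to 4.68 and 5.13 RPKM, nearly all from Nanog, with Sox2 and Esrrb listed at 0. Markers of trophoblast summed to 0.987 and 1.63 RPKM, with Hand1 listed at 0, and those of fibroblasts to 0.00541 and 0.0150 RPKM, with Thy1 and Lum listed at 0. The targeted RNA, under the symbol 1010001N08Rik in the table, was measured at 10.1 RPKM with the control LNA and 5.83 RPKM with the Gata6-AS LNA. This RNA is antisense to Gata6, and the sources used here do not say whether counting used the strand. Reads of both may be mixed wherever they overlap, and that overlap was not computed. With 1 library per group no difference has a replicate check, no p-value was computed between groups, and each comparison is of these 2 libraries. In bulk RNA, fewer cells of a type and less RNA per cell cannot be told apart.

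Arrdc4 was about 3-fold lower in the Gata6-AS library, while Txnip differed little. Arrdc4 stood at 76.4 RPKM with the control LNA and 25.3 RPKM with the Gata6-AS LNA. That is 33.1% of control, and the exact 95% interval (Clopper-Pearson) runs between 32.4% and 33.8% on at least 31571 and 12393 reads. The interval covers counting error only, not the spread between cultures, and the same holds for all intervals given here. On the scale of log2(RPKM + 1), which understates the change of low genes, the difference (Gata6-AS minus control LNA) was -1.56. Of 10868 genes averaging 1 RPKM or more across the libraries, 7 had a more negative difference. In the control library 514 of these genes had a higher RPKM than Arrdc4, and in the Gata6-AS library 1851. The gene lies on the minus strand of mm9 chromosome 7 from 75881931 to 75894127, and no other row of the table overlaps it.

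Txnip was the most abundant of the 8 genes in both libraries. It stood at 140 RPKM with the control LNA and 122 RPKM with the Gata6-AS LNA. That is 86.7% of control (85.3% to 88.2%, on at least 27215 and 28015 reads), a log2(RPKM + 1) difference of -0.20. The difference lay at percentile 16.2 of the differences of all 10868 genes, so 1759 genes had a more negative one. Txnip remained among the abundant transcripts, with 249 genes above its RPKM with the control LNA and 304 in the Gata6-AS library.

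Relative to Txnip within the same library, a ratio that no scaling of the libraries can alter, Arrdc4 was at 0.544 in the control and 0.207 in the Gata6-AS library. The second ratio is 38.1% of the first (approximate 95% counting interval on the log scale, 37.1% to 39.2%). Relative to Mlxip, Arrdc4 was at 7.12 in the control and 2.46 in the Gata6-AS library, or 34.5% (33.3% to 35.7%). The genes were chosen on the low value of Arrdc4, so both lower ratios follow from that choice and are no separate check. Arrdc4 and Txnip thus both stood lower in the Gata6-AS library, by unequal amounts. Of all 10868 genes, 58.0% lay above 0 and 1759 had a more negative difference than Txnip. Nothing about MondoA is read from these values.

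Txnip shares its whole span with Gm15441, a transcript annotated on the opposite strand from 96359688 to 96370724 on mm9 chromosome 3; Txnip itself lies from 96361880 to 96365806. Gm15441 stood at 47.0 RPKM with the control LNA and 40.1 RPKM with the Gata6-AS LNA, 85.3% of control (82.8% to 88.0%), close to the 86.7% of Txnip. In the GENCODE M21 annotation of GRCm38, 606 of the 1676 exon bases of Gm15441 (36.2%) are also exon bases of Txnip, whose exons cover 3123 bases. Covered at the mean level of Txnip, these shared bases alone would give Gm15441 50.8 RPKM with the control LNA and 44.0 RPKM with the Gata6-AS LNA. Reads of the overlapping genes cannot be told apart without the strand, and the values of either may hold reads of the other.

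**Figure D2:**
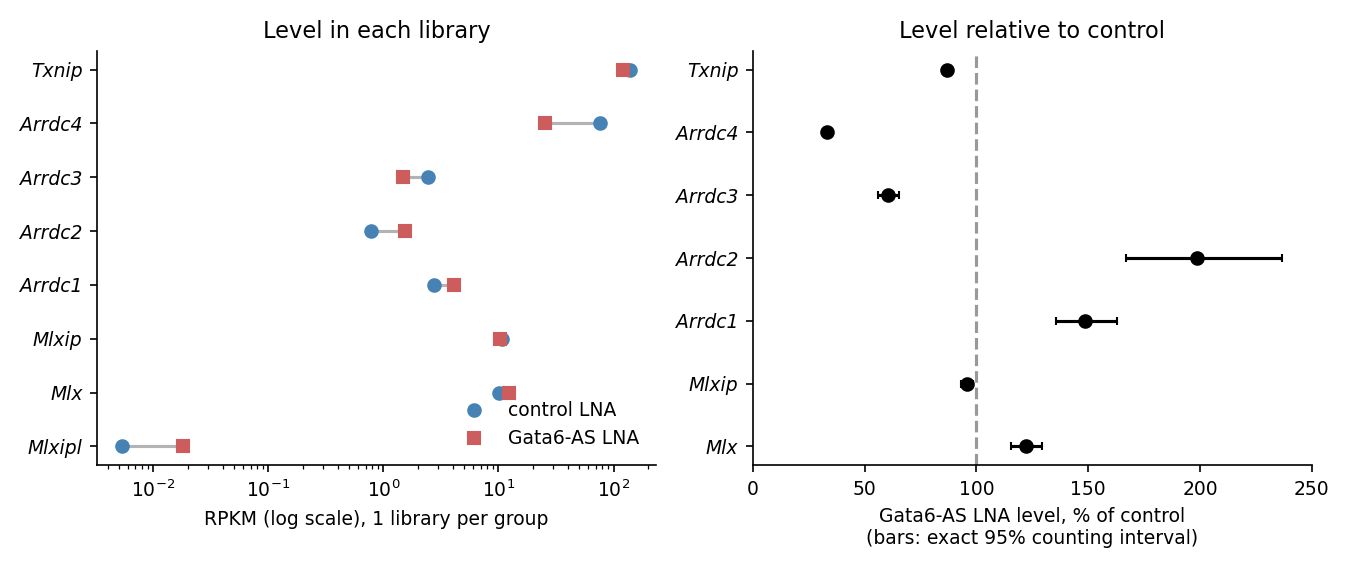
Left, RPKM of each gene in the control (circles) and Gata6-AS (squares) library on a log axis; right, the Gata6-AS level as percent of control with exact 95% counting intervals, without Mlxipl. Arrdc4 lies at 33.1% and Txnip at 86.7% of control, and the intervals do not show the spread between cultures.

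The other alpha-arrestins were low and went both ways. Arrdc3, an adaptor known for the ubiquitination of beta-adrenergic receptors, stood at 2.46 RPKM with the control LNA and 1.49 RPKM with the Gata6-AS LNA, 60.5% of control (56.1% to 65.4%, on at least 1593 and 1145 reads; log2 difference -0.47). Arrdc2, another adaptor of the family, stood at 0.779 RPKM with the control LNA and 1.55 RPKM with the Gata6-AS LNA, 198% of control (167% to 237%, on at least 188 and 443 reads; log2 difference 0.52). Arrdc2 was thus close to double by ratio, yet well under the 2-fold rule on the log2(RPKM + 1) scale, where 1 RPKM is added to a value of about the same size. Arrdc1, which recruits Tsg101 to the plasma membrane and drives budding of microvesicles, stood at 2.74 RPKM with the control LNA and 4.07 RPKM with the Gata6-AS LNA, 149% of control (135% to 163%, on at least 713 and 1257 reads; log2 difference 0.44).

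Arrdc3 and Arrdc2 were further apart in the control than in the Gata6-AS library. They had the most negative and the most positive difference of Arrdc1, Arrdc2 and Arrdc3, so a shift in their ratio follows from the choice of pair. Arrdc2 was below 1 RPKM in the control (0.779 RPKM) and reached a mean of 1 RPKM through the Gata6-AS library (1.55 RPKM). Arrdc3 was 3.15 times as abundant per length as Arrdc2 in the control and 0.962 times as abundant in the Gata6-AS library, which is 30.5% of the control ratio (25.3% to 36.8%). Arrdc1 was the highest of these 3 genes in both libraries. In mm9, Arrdc1 lies on chromosome 2 from 24780872 to 24790772, Arrdc2 on chromosome 8 from 73359054 to 73363619 (both minus strand) and Arrdc3 on the plus strand of chromosome 13 from 81022645 to 81035296. The row 1700023H06Rik, within Arrdc3 on the opposite strand, was below 0.05 RPKM in both libraries. No row overlaps Arrdc1 or Arrdc2.

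Summed over the 5 genes, alpha-arrestin transcripts stood at 223 RPKM with the control LNA and 154 RPKM with the Gata6-AS LNA. Arrdc4 made up 34.3% of this sum in the control and 16.4% in the Gata6-AS library, and Txnip 63.0% and 79.0%. Arrdc1, Arrdc2 and Arrdc3 together came to 5.98 RPKM with the control LNA and 7.11 RPKM with the Gata6-AS LNA. The lower sum therefore lay mostly in Arrdc4, with a smaller part in Txnip. Arrdc5, a further member of the family, was listed at 0 in both libraries.

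**Figure D3:**
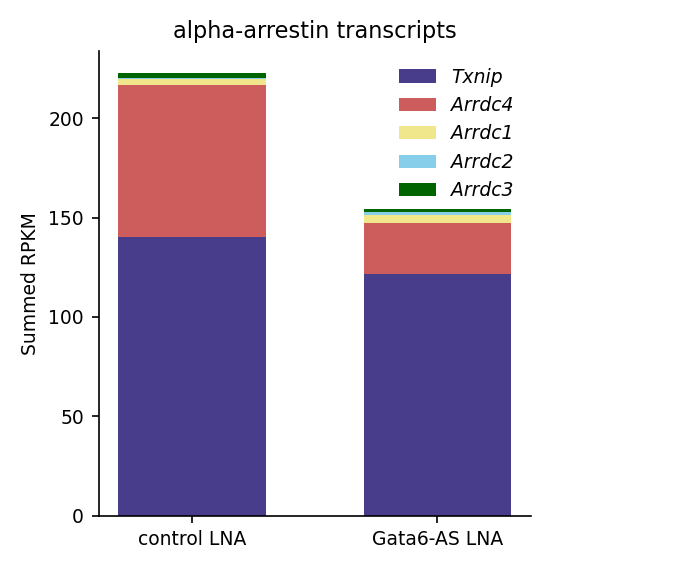
Summed RPKM of Txnip, Arrdc4, Arrdc1, Arrdc2 and Arrdc3 in each library (1 library per bar, axis from 0). The sum is 223 RPKM with the control LNA and 154 RPKM with the Gata6-AS LNA, and the Arrdc4 segment goes from 76.4 to 25.3 RPKM.

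Of the transcription factors upstream of Txnip and Arrdc4, Mlxip stood at 95.9% and Mlx at 122% of control. Mlxipl had too few reads for a comparison. Mlxip, which encodes MondoA, stood at 10.7 RPKM with the control LNA and 10.3 RPKM with the Gata6-AS LNA, 95.9% of control (93.2% to 98.6%, on at least 9130 and 10391 reads; log2 difference -0.06). Mlx, the dimerisation partner that MondoA and ChREBP need to bind DNA, stood at 10.01 RPKM with the control LNA and 12.2 RPKM with the Gata6-AS LNA, 122% of control (116% to 129%, on at least 2073 and 3010 reads; log2 difference 0.27). Mlx and Mlxip were thus at near-equal levels per length, with Mlx at 0.933 times Mlxip in the control and 1.19 times in the Gata6-AS library (127.6% of the control ratio; 119.8% to 135.8%). Mlxipl, the gene of ChREBP, which is best known from liver and fat, was close to absent. It stood at 0.00540 RPKM with the control LNA and 0.0182 RPKM with the Gata6-AS LNA, a ratio of 337% whose interval, from as few as 3 and 12 reads, runs from 90.9% to 1861%. Between Mlxip and Mlxipl, nearly all transcript was therefore that of Mlxip in both libraries.

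In mm9 Mlx lies on the plus strand of chromosome 11 from 100948591 to 100953521, and its last 385 bp overlap Psmc3ip on the opposite strand, which stood at 4.72 RPKM with the control LNA and 5.37 RPKM with the Gata6-AS LNA. Mlxip lies on the plus strand of chromosome 5 from 123844807 to 123915306 and overlaps Gm15747 on the opposite strand, at 0.460 and 0.377 RPKM. Mlxipl lies on the same chromosome from 135582761 to 135614254 with no overlapping row.

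Against the background of all genes, Arrdc4 was the member past the size rule of 2-fold on the log2(RPKM + 1) scale. Of the 8 genes, 7 had a mean of at least 1 RPKM, and 1 of the 7 was at least 2-fold lower, where 0.451% of all 10868 genes were. None was at least 2-fold higher, where 0.331% of all genes were, and 0.782% passed in either direction. At 1.5-fold the count was again 1 of 7, against 5.37% of all genes. This count depends on the added 1 RPKM. With a pseudocount of 0.1 RPKM, Arrdc2 (0.91) and Arrdc3 (-0.69) also passed 1.5-fold, and the share of all genes at that setting was not computed. Of the 7, 3 lay above 0 and 4 below, and their median was -0.06; over all genes the median was 0.05 and 58.0% lay above 0. Since the genes were selected on the value of Arrdc4, nothing is read from these counts.

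**Figure D4:**
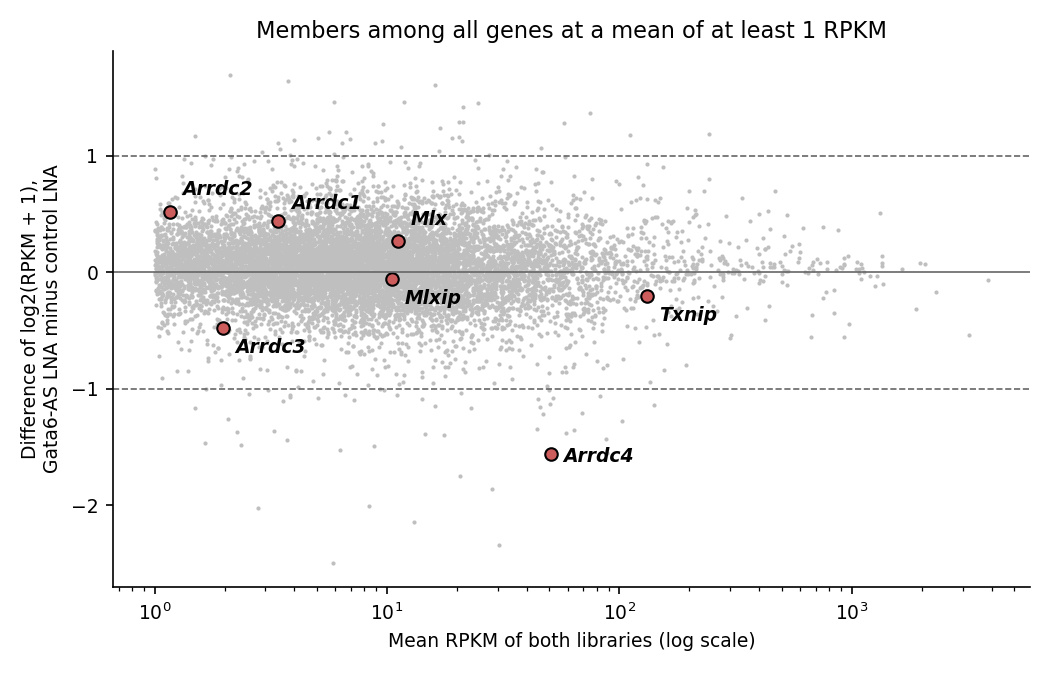
Difference of log2(RPKM + 1), Gata6-AS minus control LNA, against the mean RPKM of both libraries (log axis) for 10868 genes at a mean of at least 1 RPKM (grey), with 7 of the 8 genes marked. Arrdc4 lies at -1.56, beyond the dashed 2-fold line, and the other 6 lie between -0.47 and 0.52.

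The authors' deposited table lists 3 of the 8 genes, Arrdc4, Arrdc3 and Arrdc2, and it lists 11.9% of those 10868 genes. In the authors' deposited table the log2 difference was -1.57 for Arrdc4 (p = 3.97e-06), -0.82 for Arrdc3 (p = 0.0219) and 0.86 for Arrdc2 (p = 0.0498). These signs equal those of the RPKM differences, which come from the same libraries. The sources used here do not give the test behind the p-values in the authors' deposited table or say whether they were adjusted, and they rest on 1 library per group.

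Among 1362 genes with a mean RPKM within 2-fold of that of Arrdc4, leaving out gene models without a name, 2 had a difference at or below its own. Nearest to it in difference were the amino acid transporter gene Slc7a5 (133 against 44.7 RPKM in control and Gata6-AS library, log2 difference -1.55), the activin-binding protein gene Fst (128 against 46.9 RPKM, -1.43), the mitochondrial folate enzyme gene Mthfd2 (85.7 against 32.3 RPKM, -1.38) and the transcription factor gene Snai1 (91.8 against 35.3 RPKM, -1.35). For Txnip, with 454 genes in the same window of level, 88 had a difference at or below its own, and the nearest were Itm2b (-0.21), the clathrin adaptor gene Ap2m1 (-0.20), the chromatin protein gene Hmgn1 (-0.21) and the progranulin gene Grn (-0.20). Likeness here is the gap in log2 difference over 2 libraries.

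Among glucose transporter genes, 1, Slc2a1, was at least 2-fold higher in the Gata6-AS library. Txnip and Arrdc4 are known to limit glucose uptake, but the values here are of RNA. A link between the transporter values and those of Txnip or Arrdc4 was not tested. Of 13 glucose transporter genes, 6 were measured at a mean of 1 RPKM. All 6 of these lay above 0, where 58.0% of all genes did, and 1 was at least 2-fold higher, where 0.331% of all genes were. Their median log2 difference was 0.23 (all genes, 0.05), which became 0.018 over all 13 genes with no filter and 0.80 at a mean of at least 5 RPKM. Slc2a1, the gene of GLUT1, which Txnip is known to bind, stood at 41.3 RPKM with the control LNA and 108 RPKM with the Gata6-AS LNA (1.37). Slc2a3, the gene of GLUT3, stood at 178 RPKM with the control LNA and 309.5 RPKM with the Gata6-AS LNA (0.80). Slc2a8 (8.04 against 9.68 RPKM, 0.24), Slc2a4 (0.22), Slc2a10 (0.17) and Slc5a2 (0.09) lay nearer to 0, and like Slc2a3 they did not pass the 2-fold rule.

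Genes of the next steps, which make and use the glucose 6-phosphate that MondoA responds to, went both ways. Of 14 measured genes 9 lay above 0 and 5 below, where 58.0% of all genes lay above 0. Their median was 0.18 (0.073 with no filter), and none passed the 2-fold rule, where 0.782% of all genes did. The hexokinase genes Hk1 and Hk2 stood at 132% and 121% of control, whereas Hkdc1, the most abundant of the hexokinase genes, stood at 89.8 RPKM with the control LNA and 64.3 RPKM with the Gata6-AS LNA (71.6%, log2 difference -0.48). G6pdx, the entry enzyme of the pentose phosphate pathway, stood at 5.60 RPKM with the control LNA and 9.02 RPKM with the Gata6-AS LNA (0.60), the amino sugar enzyme gene Gfpt1 at 0.37, and glycogen synthase, Gys1, and Ugp2 at -0.28 and -0.23.

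None of the genes known in liver as targets of ChREBP passed the 2-fold rule, where 0.782% of all genes did. Of 18 genes 11 were measured, 9 above 0 and 2 below, where 58.0% of all genes lay above 0. With the median of all genes set to 0 the counts became 7 and 4. The median was 0.31, and 0.026 over all 18 genes with no filter. The fatty acid elongase gene Elovl6 (1.46 against 2.86 RPKM, 0.65), the citrate lyase gene Acly (15.3 against 23.2 RPKM, 0.57) and the fatty acid synthase gene Fasn (7.91 against 11.7 RPKM, 0.51) had the most positive differences. On the other side were the repressor genes Bhlhe40 (25.0 against 16.6 RPKM, -0.56) and Klf10 (34.1 against 27.6 RPKM, -0.29). Arrdc4 and Txnip, which lay below 0, were not counted in this list, and Pklr and Thrsp were at or near 0 in both libraries. Many of these genes are also known targets of other lipid regulators.

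Other proteins of the E-box network, which share the DNA element with Mlx dimers, had a median of 0.14 over 11 genes. Of these, 8 lay above 0 and 3 below, where 58.0% of all genes lay above 0. With the median of all genes set to 0 the counts were 7 and 4. None passed the 2-fold rule, where 0.782% of all genes did. Mxd4, a repressor that pairs with Max and with Mlx, had the most positive difference (5.24 against 9.26 RPKM, 0.72), followed by Mycn (24.8 against 37.9 RPKM, 0.59) and Myc (0.35). Mxi1 had the most negative (16.0 against 13.3 RPKM, -0.25), then Mga (-0.05) and Usf2 (-0.04).

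None of the ubiquitin ligases of the NEDD4 family and their activators, the partners of alpha-arrestins, passed the 2-fold rule. Over all genes 0.782% did. Of 9 measured genes 8 lay below 0 and 1 above, where 58.0% of all genes lay above 0. The gene above 0 was Smurf2 at 0.05, which also falls below 0 once the median of all genes is set to 0. The median of the 9 genes was -0.19. Ndfip1, an adaptor that activates these ligases, stood at 44.7 RPKM with the control LNA and 32.1 RPKM with the Gata6-AS LNA (-0.46), Smurf1 at 17.9 and 13.3 RPKM (-0.41), and Itch, a ligase of Txnip, at 5.55 and 3.95 RPKM (-0.40). Nedd4, the most abundant of them, stood at 136 RPKM with the control LNA and 120 RPKM with the Gata6-AS LNA (-0.19).

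The thioredoxin system, on which Txnip acts, had 8 of 12 measured genes above 0 and 4 below, where 58.0% of all genes lay above 0. The median was 0.19 and none passed the 2-fold rule, where 0.782% of all genes did. Txn1, whose product Txnip binds, stood at 108 RPKM with the control LNA and 147 RPKM with the Gata6-AS LNA (0.45), the peroxidase gene Prdx1 at 53.6 and 86.9 RPKM (0.69) and the reductase gene Txnrd1 at 28.6 and 36.3 RPKM (0.34). Prdx4 (-0.10), Txnl1 (-0.08) and Prdx3 (-0.07) lay just below 0. Nlrp3, an inflammasome gene whose product Txnip is known to bind, was near 0 RPKM in both libraries.

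Other proteins with an arrestin fold had a median of 0.10 over 6 measured genes, 4 above 0 and 2 below, none past the 2-fold rule. Over all genes, 58.0% lay above 0 and 0.782% passed the 2-fold rule, the background for each list in this paragraph. The beta-arrestin genes lay on opposite sides, with Arrb2 at 3.97 RPKM with the control LNA and 6.02 RPKM with the Gata6-AS LNA (0.50) and Arrb1 at 3.06 and 2.09 RPKM (-0.39). The retromer subunit gene Vps26a stood at 74.0 and 47.2 RPKM (-0.64) and its paralog Vps26b at 10.3 and 11.2 RPKM (0.11). The budding partners of Arrdc1 had a median of 0.01 over 11 genes, which turned to -0.037 with the median of all genes set to 0 and to -0.015 with equal summed RPKM; 7 lay above 0 and 4 below (4 and 7, and 5 and 6, under these scalings), Tsg101 at 0.19 and Vps37c at -0.59. Genes of the AMPK, mTOR and insulin pathways, some of whose kinases act on Txnip and MondoA, had a median of 0.01 over 13 genes. It turned to -0.034 and -0.011 under these scalings. The list is named for kinases but also holds genes of proteins that are not kinases: Foxo1, Foxo3, Rptor, Prkab1, Prkab2, Prkag1 and Prkag2. Of the 13 genes, 8 lay above 0 and 5 below (6 and 7 under either scaling). The AMPK subunit genes Prkab1 (28.1 against 17.2 RPKM, -0.67) and Prkaa2 (33.9 against 22.9 RPKM, -0.54) were the most negative. Neither list had a gene past the 2-fold rule. Among the receptor genes, Igf1r (0.59) and Adrb3 (0.40) lay above 0 and Insr (8.39 against 5.39 RPKM, -0.56) below.

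**Figure D5:**
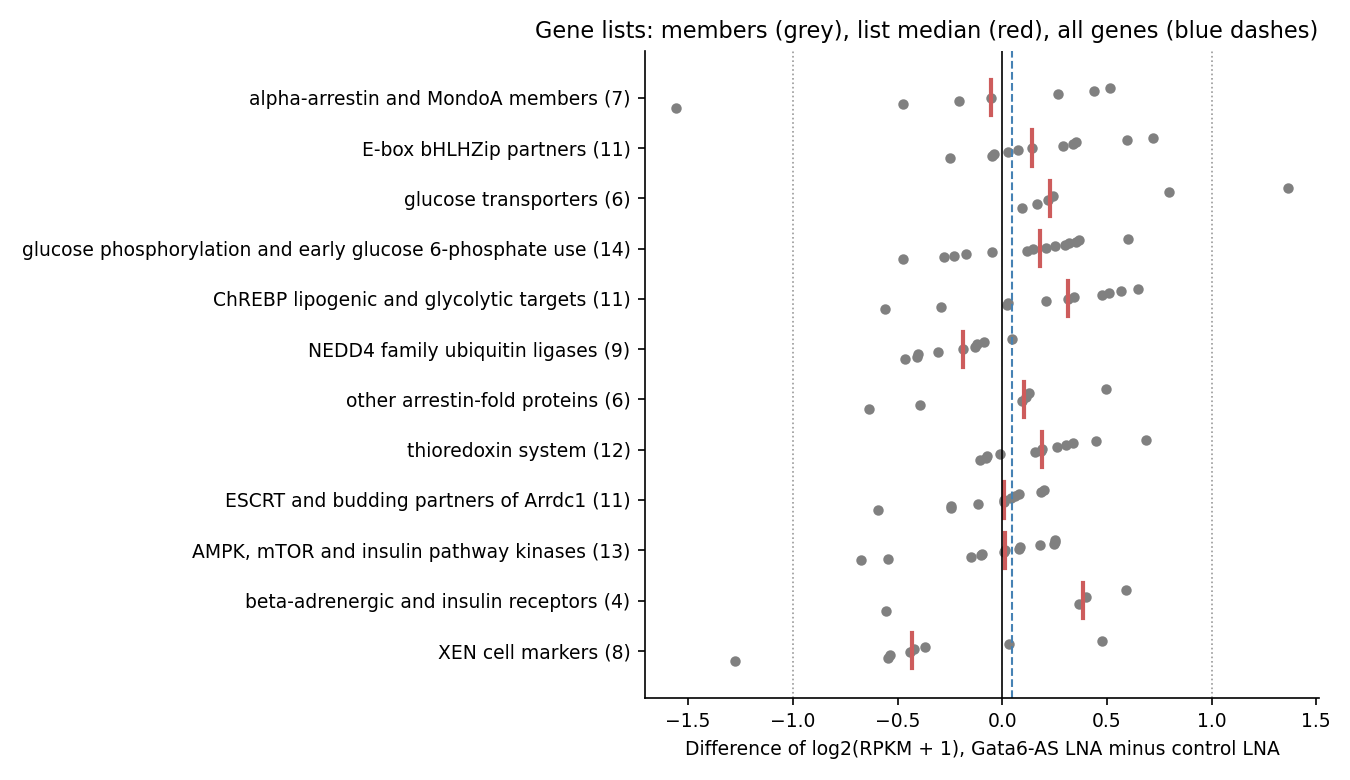
Difference of log2(RPKM + 1), Gata6-AS minus control LNA, for each measured gene (grey points) of 12 lists with at least 4 measured genes (number in brackets), with the list median (red bar), the median of all genes (0.05, dashed) and the 2-fold limits (dotted). All 6 measured glucose transporter genes (of 13 listed) lie above 0, and 8 of 9 measured genes of the NEDD4 family list lie below 0. Of all 10868 genes, 58.0% lie above 0.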

How the data were processed

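PS10 XEN cells were transfected with an LNA against Gata6-AS or a control LNA, 1 library each. Per the labels' protocols, TRIzol extraction and column purification were followed by library preparation with an Illumina kit. The authors' deposited table gives RPKM for 26127 rows; TopHat and mm9 are named in the submitters' processing notes. The sources used here do not give the counting tool, annotation or strand. For 2099 rows, another of the authors' deposited tables holds log2 values, the log2 difference between them and p-values of up to 0.0750; rows were joined by position.

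From these, differences of log2(RPKM + 1) were computed for 10868 rows with a mean of at least 1 RPKM, leaving out small RNA genes. Of genes with a span under 3000 bp and a value above 0, 828 of 2094 (control) and 886 of 2211 (Gata6-AS) fell on 1 step. For these, RPKM times span was a whole multiple of the step within 0.002 reads plus a relative 3e-07, which gave the depth. The other short genes did not fall on it. The least numbers of reads behind a gene are the smallest that give both RPKM values at 1 length up to its span and 15000 bp. Counting intervals treat reads as independent molecules, which PCR copies are not. This step was tested on simulated data. Python 3.11.15, numpy 2.4.6, pandas 2.3.3 and scipy 1.17.1 were used.

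The genes, 15 lists (154 entries, 2 matched by RefSeq synonyms) and motifs were chosen with earlier results of these data known. Named in each list were genes past the 2-fold rule and otherwise up to 3 with the most extreme differences per direction; Hk2, Nedd4, Slc2a10, Slc5a2, the genes holding the paired half-sites and genes near 0 RPKM were named outside this rule, after their values were seen. A few list genes are not reported here. Genes alike were the 4 nearest in difference within 2-fold in mean RPKM.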

Additional observations from a re-analysis of the deposited data

How the results depend on the processing

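Arrdc4 stayed past the 2-fold rule under every alternative tried, which adds no support because the genes were chosen on its low value. Its log2 difference was -1.59 with a pseudocount of 0.1 RPKM, -1.61 with the median of all genes set to 0 and -1.61 with each library scaled to 1000000 summed RPKM. Txnip was at -0.25 and -0.23 under these 2 scalings. Among the other members, Mlxipl, near 0 RPKM, turned to -0.030 with the median set to 0, and Arrdc2 and Arrdc3 moved away from 0 with a pseudocount of 0.1 RPKM, to 0.91 and -0.69. The number of genes at least 2-fold higher, 36, became 92 with a pseudocount of 0.1 RPKM, 59 with 0.5 RPKM, 66 with equal summed RPKM and 372 at 1.5-fold; the number lower, 49, became 81, 76 and 212 with 0.1 RPKM, equal summed RPKM and 1.5-fold. The median of the ESCRT list turned to -0.037 and -0.015, and that of the AMPK list to -0.034 and -0.011, under the median and summed scalings, and the receptor list turned to -0.077 at a mean of at least 5 RPKM. With no filter the medians fell from 0.23 to 0.018 for glucose transporters, from 0.31 to 0.026 for ChREBP targets and from 0.18 to 0.073 for glucose phosphorylation, and at 5 RPKM that of the transporters was 0.80. A smaller pseudocount and a lower fold let more low genes pass by construction; the cause of the other shifts was not tested. No paired analysis was possible because each group has 1 library, so no library could be left out either. In the control library, 104 reads make up 1 RPKM over 1 kb of transcript (exact 95% Poisson interval 85.0 to 126), and 0 reads allow up to 0.0290 RPKM.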

Other observations

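Genes that share the paired half-sites of the Txnip promoter were few. Of 7561 measured genes with a promoter window, 7 held this pattern: Txnip, Fem1b (40.1 against 36.2 RPKM in control and Gata6-AS library, log2 difference -0.14), Man2b2 (32.6 against 29.4 RPKM, -0.14), Rbbp4 (-0.07), the folliculin partner gene Fnip1 (-0.03), A430005L14Rik (0.01) and Nfkb2 (0.04). Their median was -0.07, against 0.05 for all genes with a window, and none was 2-fold different. Among 948 measured genes with an E-box in the window, as in Arrdc4, the median was 0.07, with 4 past the 2-fold rule as higher and 6 as lower. Among 3340 with a CCAAT box it was 0.07, with 10 higher and 16 lower. Over all genes with a window, 18 were higher and 33 lower. These counts describe letters near annotated starts of GRCm38.p6 and were chosen after the values of Arrdc4 and Txnip were seen.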
